A study of Mus musculus with 6 samples.

Results

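The genes of astrocyte glutamate uptake and of the glutamine cycle described here are Slc1a2, Slc1a3, Slc1a1, Slc1a4, Glul, Glud1 and Got1. They were chosen by name for this role and are 7 of the 22086 genes to which the counted transcripts were matched. All 7 passed the filter on low counts. None differed between Cx43KO and Cx43FL beyond the spread between libraries at an adjusted p below 0.05. Over all genes tested, edgeR called 0.00738% higher and 0% lower. Each gene was read on its transcript with the most counts. By CPM, 2 of the 7, Glul and Glud1, were lower in every Cx43KO library than in any Cx43FL library. The same held for 7.45% of all genes tested. The other 5 overlapped between genotypes, as did shorter transcripts of Glul and Glud1. Relative to the summed counts of astrocyte markers, Glul stayed lower in every Cx43KO library, as did 2.32% of all genes tested, and Glud1 overlapped. On that scale Slc1a2 and Slc1a3 were higher in every Cx43KO library than in any Cx43FL library, as were 9.71% of all genes tested. That scaling was chosen after the data were seen, and it moved the median log2 difference of all genes tested to 0.40.

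mRNAs bound to tagged ribosomes were extracted from the hippocampus of mice aged 6 weeks by translating ribosome affinity purification (TRAP) and sequenced, in 3 Cx43FL and 3 Cx43KO libraries. The comparison asks how the loss of connexin 43 (Cx43), the main astrocyte gap junction protein, affects the mRNAs that astrocytes hold on ribosomes. Mice of both groups carried tg:Aldh1L1-RPL10aGFP, a transgene in which the astrocyte promoter Aldh1l1 drives the ribosomal protein L10a fused to eGFP, and the floxed alleles Cx43 fl/fl. Cx43FL mice were littermates with no other allele named, and Cx43KO mice carried Gfap Cre in addition. The human GFAP promoter drives this Cre, so recombination was limited by where that promoter is active and not by the tagged cells. Sex was not given in the sources used here. Whole hippocampi were used for each extraction. The study calls the libraries of a genotype independent, but neither it nor the labels say whether each came from separate animals. The p-values therefore measure the spread between these libraries, part of which may be technical.

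Glutamate released at synapses is cleared mainly by astrocytes. The carrier GLT-1, encoded by Slc1a2, and the carrier GLAST, encoded by Slc1a3, move it into the cell together with sodium, driven by the gradient that the sodium pump maintains. Inside, glutamine synthetase (Glul) adds ammonia to make glutamine, which neurons take up and turn back into glutamate and GABA, while glutamate dehydrogenase (Glud1) and aspartate aminotransferase (Got1) link glutamate to energy metabolism. Slc1a1 encodes EAAC1, the carrier known mainly from neurons, and Slc1a4 encodes ASCT1, a carrier of small neutral amino acids of the same family.

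The libraries held between 14787303 and 34733473 counts on genes, and Cx43KO replicate 3 was the deepest. Values below are CPM, counts per M counts on tested genes after TMM scaling, and values listed by library follow the order of replicates 1 to 3. The 16 astrocyte markers were all detected in every library, with a summed level of 12889 to 14377 CPM in Cx43FL. In Cx43KO their sum was 5350 CPM in replicate 1, 11918 CPM in replicate 2 and 16859 CPM in replicate 3. Astrocyte markers went both ways, 6 of 16 having positive log2 fold changes, and 13 of 16 were below every Cx43FL library in Cx43KO replicate 1. The 12 neuronal markers, all with positive log2 fold changes, summed to 2347 to 3192 CPM in Cx43FL and to 9512, 3452 and 5166 CPM over the Cx43KO libraries. Cx43KO replicate 1 stood apart, with the lowest astrocyte sum and the highest neuronal sum of the 6 libraries. The 9 oligodendrocyte markers reached 2672 CPM in that library against at most 1021 CPM in the others. The 12 microglial markers summed to 31.5 to 58.0 CPM in Cx43FL and reached 110 to 252 CPM in Cx43KO, with Tmem119, C1qa, Trem2 and Itgam at 0 in at least 1 library. The 9 endothelial and mural markers summed to 30.1 to 36.0 CPM in Cx43FL and reached 23.4 to 105 CPM in Cx43KO, with Cldn5, Flt1 and Tek at 0 in at least 1 library, and the 5 oligodendrocyte precursor markers to 185 to 254 and 181 to 338 CPM, with Cspg4 at 0 in at least 1. The 5 choroid plexus and ependymal markers summed to 453 CPM in Cx43FL replicate 2, to 9746 and 15055 CPM in the other Cx43FL libraries and to between 21834 and 32620 CPM in Cx43KO, with Folr1 at 0 in at least 1 library. The part of these cell types in the results below was not tested. In bulk RNA of this kind, fewer cells of a type and less RNA per cell cannot be told apart.

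The targeted gene did not separate the groups. Gja1, which encodes Cx43, was at 92.0, 91.7 and 82.3 CPM in the Cx43FL libraries and at 87.2, 98.4 and 95.1 CPM in the Cx43KO libraries. The log2 fold change of Gja1 was 0.08 (SE 0.28, edgeR adjusted p = 0.949). Gja1 was counted over 1 whole transcript, so the counts do not show whether reads lie in its deleted portion. Cx43KO and Cx43FL stand for the libraries labelled so, and every direction given here rests on those labels.

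The 7 genes spanned a wide range of levels, and their order is given per kb of the counted transcript. This takes counts as spread evenly along a transcript, which the shares on shorter transcripts given below do not show. In Cx43FL, Glul had the highest level at 3237 CPM per kb, followed by Slc1a2 at 657, Glud1 at 419, Slc1a3 at 241, Got1 at 61.5, Slc1a4 at 13.9 and Slc1a1 at 6.62 CPM per kb. Neighbours in this order had separate ranges in Cx43FL except for Slc1a4 and Slc1a1, which overlapped. In Cx43KO the ranges overlapped for Glul and Slc1a2, for Glud1 and Slc1a3, and for Slc1a4 and Slc1a1. By CPM without regard to length, Glul ranked 1 of the 13545 genes tested in Cx43FL, Slc1a2 ranked 5, Glud1 45 and Slc1a3 76. Together the 7 genes took 1.95%, 1.71% and 2.19% of the counts on tested genes in the Cx43FL libraries. In the Cx43KO libraries they took 1.07%, 1.89% and 2.39%.

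**Figure D1:**
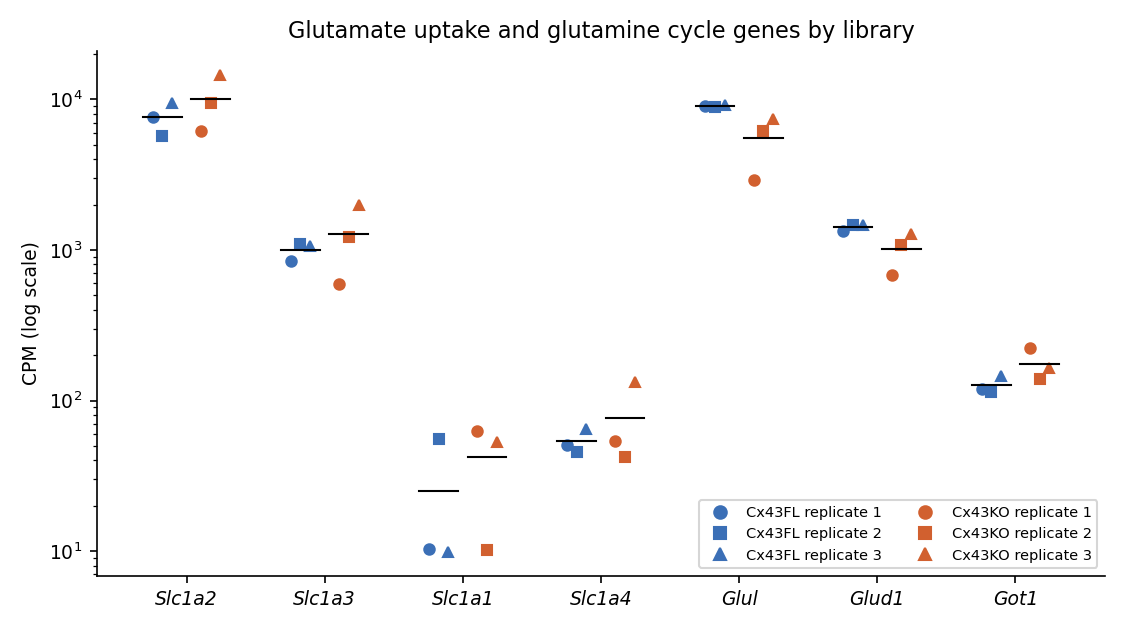
Level of each gene in every library, in CPM on a log axis, with 3 Cx43FL libraries in blue, 3 Cx43KO libraries in orange and the mean of each genotype as a bar. Glul and Glud1 have all Cx43KO points below all Cx43FL points, and the other 5 genes overlap.

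The uptake carriers are described first. Slc1a2 was counted on the transcript ENSMUST00000080210 (GRCm38 chr2:102658659-102790784, plus strand), whose 11 exons hold 11595 bases, of which 9253 are 3′ UTR and 1716 are coding. It received 116206, 85737 and 146101 counts in the Cx43FL libraries, or 7654, 5687 and 9516 CPM. The Cx43KO libraries gave 98609, 235863 and 472068 counts, or 6122, 9479 and 14574 CPM. Cx43KO replicate 3 was the highest of all libraries and Cx43KO replicate 1 lay inside the Cx43FL range, so that the genotypes overlapped. Cx43FL averaged 7619 ± 1914 CPM and Cx43KO 10058 ± 4256 CPM (SD, n = 3 each). The log2 fold change was 0.40 (SE 0.37, 95% interval -0.42 to 1.23, edgeR quasi-likelihood test with Benjamini-Hochberg adjusted p = 0.755). It was 0.03 without Cx43KO replicate 3 and 0.65 without Cx43KO replicate 1 (SE 0.27, edgeR adjusted p = 0.544).

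Slc1a3 was counted on the transcript ENSMUST00000005493 (chr15:8634124-8710764, minus strand), with 10 exons and 4163 bases. The counts were 12768, 16568 and 16397 in the Cx43FL libraries, or 841, 1099 and 1068 CPM. They were 9590, 30457 and 64550 in the Cx43KO libraries, or 595, 1224 and 1993 CPM. The lowest and the highest of the 6 libraries were thus both Cx43KO libraries, replicate 1 and replicate 3. The mean level was 1003 ± 141 CPM in Cx43FL and 1271 ± 700 CPM in Cx43KO (SD, n = 3 each), with a log2 fold change of 0.34 (SE 0.39, 95% interval -0.53 to 1.21, edgeR adjusted p = 0.806). Without Cx43KO replicate 3 it turned to -0.14, and without Cx43KO replicate 1 it was 0.68 (SE 0.26, edgeR adjusted p = 0.501).

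The balance between both glial carriers can be read within a library, where no scaling enters. Counts on Slc1a2 were 9.10, 5.17 and 8.91 times those on Slc1a3 in the Cx43FL libraries. Within Cx43KO they were 10.3, 7.74 and 7.31 times those on Slc1a3. The ranges overlapped, and Cx43FL replicate 2 had the lowest ratio. On the log2 scale the ratio averaged 2.90 ± 0.46 in Cx43FL against 3.06 ± 0.26 for Cx43KO (SD, n = 3 each), a difference of 0.16 (exact 2-sided permutation test, p = 0.8, smallest possible p 0.1). Without Cx43FL replicate 2 the difference was -0.11. As the Slc1a2 transcript is much the longer one, the ratio per kb would be lower.

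Among the 4 carriers, Slc1a1 had the lowest mean level, although it exceeded Slc1a4 in Cx43FL replicate 2 and Cx43KO replicate 1. Its transcript ENSMUST00000025875 (chr19:28835049-28913960, plus strand, 12 exons, 3800 bases) received 157, 832 and 152 counts in the Cx43FL libraries, or 10.3, 55.2 and 9.90 CPM. The Cx43KO libraries gave 1018, 255 and 1709 counts, or 63.2, 10.2 and 52.8 CPM. The values fell into a low and a high range within both genotypes, with 2 of 3 Cx43FL libraries and 1 of 3 Cx43KO libraries near 10 CPM. The log2 fold change was 0.74 (SE 0.77, 95% interval -0.96 to 2.45, edgeR adjusted p = 0.784). Leaving out single libraries gave values from 0.31 without Cx43KO replicate 1 to 2.04 without Cx43FL replicate 2 (edgeR adjusted p = 0.946 and 0.905).

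The place of the Slc1a1 counts along the gene differed between libraries. A read is counted on every transcript it overlaps, so a count that no other Slc1a1 transcript shares lies on the last 1322 bases of the main transcript, all 3′ UTR. At least 823 of 832 counts (98.9%) in Cx43FL replicate 2 and 1674 of 1709 (98.0%) in Cx43KO replicate 3 lay there. The share was at least 80.3% in Cx43FL replicate 1, 44.8% in Cx43KO replicate 1 and 7.89% in Cx43FL replicate 3, and no such count could be assigned in Cx43KO replicate 2. The 2 libraries with almost all counts at the 3′ end belonged to different genotypes. The exons of 4430402I18Rik on the opposite strand share 1216 bases with the Slc1a1 transcript, outside these last bases, and the library kit does not mark strand, so reads of both genes cannot be told apart there. Counts on the transcript of 4430402I18Rik that shares these bases came to between 0 and 44.3% of the Slc1a1 count.

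Slc1a4 was counted on ENSMUST00000004634 (chr11:20302180-20332713, minus strand, 8 exons, 3872 bases). It was at 51.0, 45.2 and 64.9 CPM in the Cx43FL libraries, from 774, 682 and 996 counts. The Cx43KO libraries stood at 54.2, 41.9 and 133 CPM, from 873, 1043 and 4319 counts. Cx43KO replicates 1 and 2 were within or below the Cx43FL range and replicate 3 was above it. The log2 fold change of 0.51 (SE 0.44, 95% interval -0.47 to 1.49, edgeR adjusted p = 0.741) turned to -0.16 without Cx43KO replicate 3.

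Of the enzymes, Glul had the narrowest range in Cx43FL. Its transcript ENSMUST00000086199 (chr1:153899944-153909723, plus strand, 7 exons, 2792 bases) received 136025, 134713 and 141515 counts in the Cx43FL libraries, or 8960, 8936 and 9217 CPM. The Cx43KO libraries gave 46807, 153823 and 240259 counts, or 2906, 6182 and 7418 CPM. Every Cx43KO library was below every Cx43FL library, and replicate 1 was the lowest. The mean level was 9037 ± 156 CPM in Cx43FL and 5502 ± 2332 CPM in Cx43KO (SD, n = 3 each), with coefficients of variation of 1.72% and 42.4%. Glul had a log2 fold change of -0.72 (SE 0.36, 95% interval -1.52 to 0.09, edgeR unadjusted p = 0.0749, adjusted p = 0.609). The exact permutation test of its log2 level (2-sided, 0.5 added to each CPM) gave p = 0.1, the smallest that 3 against 3 libraries allow. Without Cx43KO replicate 1 the log2 fold change was -0.41. Teddm2, on the opposite strand, shares 116 exon bases with Glul, and its count was 0.897% to 3.11% of the Glul count.

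Glud1 showed the same separation at a lower level. Its transcript ENSMUST00000022322 (chr14:34310727-34345265, plus strand, 13 exons, 3390 bases) was at 1328, 1472 and 1462 CPM in the Cx43FL libraries, from 20160, 22190 and 22440 counts. The Cx43KO libraries stood at 682, 1085 and 1283 CPM, from 10986, 27002 and 41572 counts. All Cx43KO libraries were below all Cx43FL libraries, the gap between Cx43KO replicate 3 and Cx43FL replicate 1 being small beside the spread within Cx43KO. Glud1 had a log2 fold change of -0.48 (SE 0.30, 95% interval -1.14 to 0.18, edgeR adjusted p = 0.645), and the exact permutation test gave p = 0.1. Without Cx43KO replicate 1 it was -0.27.

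Got1, the cytosolic aspartate aminotransferase, was counted on ENSMUST00000026196 (chr19:43499752-43524605, minus strand, 9 exons, 2058 bases). It was at 119, 114 and 146 CPM in the Cx43FL libraries, from 1803, 1726 and 2246 counts. The Cx43KO libraries stood at 222, 139 and 164 CPM, from 3582, 3451 and 5300 counts. Its highest library was Cx43KO replicate 1, the one in which Glul, Glud1 and Slc1a3 were lowest. Cx43KO replicate 2 lay inside the Cx43FL range, and the log2 fold change was 0.47 (SE 0.29, 95% interval -0.18 to 1.11, edgeR adjusted p = 0.647). Without Cx43KO replicate 1 it was 0.25.

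Over the 7 genes and with all 6 libraries, edgeR called 0 higher and 0 lower, 0 had an unadjusted p below 0.05, and DESeq2 with its prior called 0. Over all genes tested, edgeR called 0.00738% higher and 0% lower in Cx43KO, an unadjusted p below 0.05 was reached by 5.63% higher and 2.64% lower, and DESeq2 called 0.827% higher and 0.124% lower. Without Cx43KO replicate 1, Slc1a2 and Slc1a3 reached an unadjusted p below 0.05 in edgeR with higher values, as did 5% of all genes. Of the 7 genes, 2 were below all Cx43FL libraries in every Cx43KO library, against 7.45% of all genes tested, and 0 were above, against 8.08%. The log2 fold changes were positive for 5 and negative for 2, with a median of 0.40 beside 0.07 over all genes tested. The coefficient of variation was larger in Cx43KO for 6 of the 7 genes, as it was for 68.7% of all genes tested. The median over all genes was 29.8% in Cx43FL and 45.4% in Cx43KO. Among the Cx43KO libraries, replicate 1 was the lowest for 4 of the 7 genes and replicate 3 the highest for 5.

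**Figure D2:**
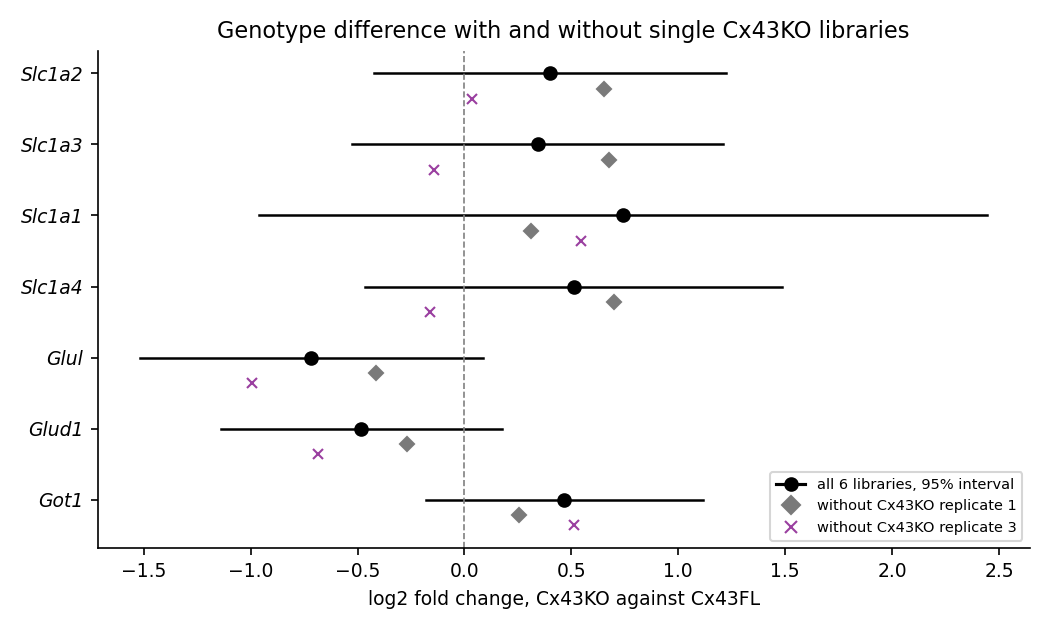
Log2 fold change of each gene in Cx43KO against Cx43FL, as black points with their 95% interval from edgeR, and again without Cx43KO replicate 1 (grey diamonds) or replicate 3 (crosses). All 7 intervals include 0, and Slc1a3 and Slc1a4 change sign without replicate 3.

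Cx43KO replicate 1, with the lowest astrocyte marker sum, had the lowest values of Glul, Glud1 and Slc1a3 and the highest of Got1 and Slc1a1. The part of the marker sum in these values was not tested. The counts were also set against the summed counts of the 16 astrocyte markers, a scaling chosen after the data were seen. Aldoc, a glycolytic enzyme of astrocytes, alone made up 46.4% to 51.7% of the marker sum in Cx43FL and 39.5%, 47.8% and 45.9% in the Cx43KO libraries. This scaling adds a single log2 shift to every gene in a library. It moved the median log2 difference of all genes tested to 0.40, and by construction it left differences relative to that median unchanged.

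Glul counts amounted to 69.5%, 62.2% and 67.9% of the marker counts in the Cx43FL libraries and to 54.3%, 51.9% and 44.0% in the Cx43KO libraries. Every Cx43KO library was below every Cx43FL library on this scale too, as for 2.32% of all genes tested. The log2 difference of Glul was -0.41 (exact permutation test, two-sided p = 0.1, the smallest it can give), or -0.82 relative to the median gene.

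For Glud1, Slc1a2 and Slc1a3, whether the genotypes overlapped depended on the scale, through the shift common to all genes. Glud1 counts were 10.3%, 10.2% and 10.8% of the marker counts in the Cx43FL libraries and 12.7%, 9.11% and 7.61% in the Cx43KO libraries, which overlapped. Slc1a2 counts were 59.4%, 39.6% and 70.1% in the Cx43FL libraries and 114%, 79.5% and 86.4% in the Cx43KO libraries. Slc1a3 counts came to 6.53%, 7.64% and 7.87% in the Cx43FL libraries and to 11.1%, 10.3% and 11.8% in the Cx43KO ones. For both carriers every Cx43KO value was above every Cx43FL value, as for 9.71% of all genes tested on this scale. Relative to the median gene the log2 differences were -0.52 for Glud1, 0.35 for Slc1a2 and 0.19 for Slc1a3. Slc1a1, Slc1a4 and Got1 overlapped between genotypes on this scale, with log2 differences of 1.27, 0.75 and 0.86.

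**Figure D3:**
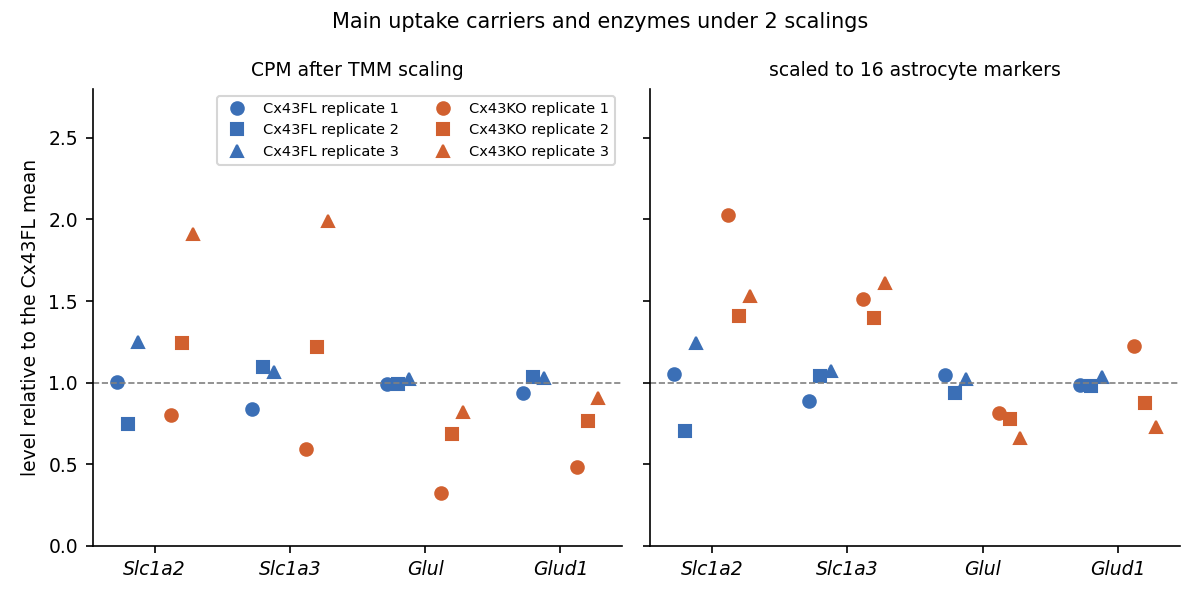
Slc1a2, Slc1a3, Glul and Glud1 in every library relative to their Cx43FL mean (dashed line at 1), by CPM on the left and relative to the summed counts of 16 astrocyte markers on the right. On the right scale the median log2 difference of all genes tested is 0.40. The log2 differences of all 4 genes are higher there than by CPM, and Glul lies below Cx43FL on both.

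Since reads were counted on every transcript they overlap, a shorter transcript samples a portion of the gene. For Slc1a2, a transcript on the 5′ portion that covers 16.5% of the main one received 8.18% to 8.97% of its count in Cx43FL and 8.59% to 9.54% in Cx43KO. For Glul, a transcript that covers 21.8% of the main one received 6.44%, 5.44% and 8.77% of its count in the Cx43FL libraries. The Cx43KO libraries gave 10.1%, 9.25% and 2.96%. A shorter Slc1a3 transcript likewise had its lowest share, 3.74%, in Cx43KO replicate 3, against 5.11% to 8.82% in the other libraries. The deepest library thus held fewer counts on these portions of Glul and Slc1a3 than any other, relative to the whole transcript. The share of the shorter Slc1a1 transcript ranged most, from 0.12% in Cx43FL replicate 2 to 61.2% in Cx43FL replicate 3. For Glud1, a short transcript received 17.4%, 12.8% and 21.0% of the main count in the Cx43FL libraries and 24.6%, 23.9% and 17.4% in the Cx43KO libraries, which overlapped. For Got1, a transcript that covers 66.6% of the main one received 57.9% to 72.8% of its count in Cx43FL and 66.9% to 71.7% in Cx43KO.

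In the edgeR fit over every transcript, 33 other transcripts of the 7 genes were tested, of which 32 had the sign of the main transcript. None of the 33 passed an adjusted p below 0.05, and over all 49127 transcripts tested 1 was called higher and 0 lower. These signs are not separate measurements, because transcripts of a gene share reads. The other Slc1a4 transcript had the same count as the main one in every library. The exception was a Got1 transcript at -0.58, against 0.46 for the main Got1 transcript in this fit. The 4 other Glud1 transcripts gave -0.19 to -0.03, closer to 0 than the -0.49 of the main one. On the shorter transcripts described above, the log2 fold change was -0.80 for that of Glul, -0.16 for Glud1, 0.50 for Slc1a2, 0.28 for Slc1a3, 1.81 for Slc1a1 and 0.53 for Got1. With counts scaled as for the main transcripts, the genotypes overlapped on the shorter transcripts of Glul and Glud1.

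**Figure D4:**
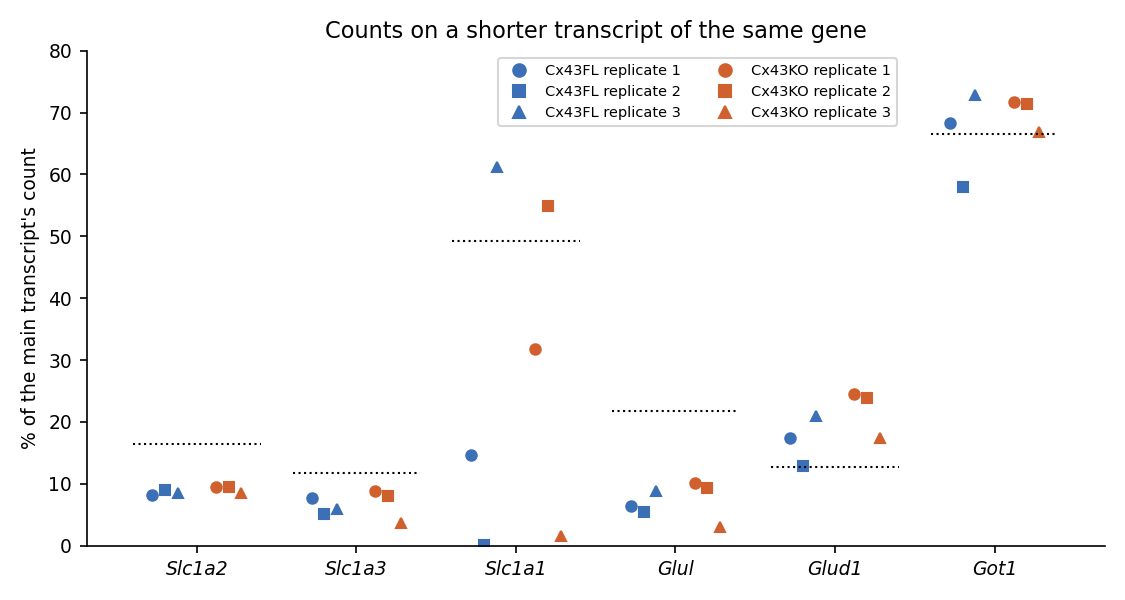
Count on a shorter transcript as a percent of the count on the main transcript of the same gene, in every library, with the percent of the main transcript's bases that it covers as a dotted line. Shares vary most for Slc1a1, and Cx43KO replicate 3 has the lowest share for Slc1a3 and Glul.

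The promoters of Glul and Glud1 are shown because these were the genes that lay lower in every Cx43KO library. They are the 250 bases before the RefSeq start on GRCm38.p6, 5′ to 3′, with matches to the GC box (GGGCGG) and the CCAAT box in capitals on either strand. The Glul window is chr1:153899679-153899928 and the Glud1 window chr14:34310477-34310726, both on the plus strand.
Glul: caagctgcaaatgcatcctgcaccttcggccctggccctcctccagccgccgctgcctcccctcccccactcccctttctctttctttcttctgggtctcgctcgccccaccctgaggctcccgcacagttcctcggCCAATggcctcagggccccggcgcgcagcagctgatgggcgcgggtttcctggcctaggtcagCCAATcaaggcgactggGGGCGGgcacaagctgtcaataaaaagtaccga
Glud1: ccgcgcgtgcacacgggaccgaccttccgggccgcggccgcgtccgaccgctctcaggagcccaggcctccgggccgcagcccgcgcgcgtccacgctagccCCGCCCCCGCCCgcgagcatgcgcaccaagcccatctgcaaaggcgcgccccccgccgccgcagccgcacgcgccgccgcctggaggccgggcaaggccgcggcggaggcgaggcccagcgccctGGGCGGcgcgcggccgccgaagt
The Glul window held 2 CCAAT boxes and 1 GC box, at a GC content of 64.8%, and the Glud1 window 3 GC boxes and 0 CCAAT boxes, at 82% GC. Both lacked the TATA box letters TATAAA on either strand. Of 32851 mouse promoters of this length, 33.8% held a CCAAT box, 32.7% a GC box and 12.4% a TATA box. These matches describe the letters and were not tested against the counts.

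The genes most like Slc1a2, Slc1a3 and Glul over the 6 libraries were found by the root mean square difference of their centred log2 CPM, among genes with a mean normalized count above 500. For Slc1a2 these were Cul4b (0.10), Aldh9a1 (0.11) and Timp3 (0.12), and Slc1a3 stood at 0.32. For Slc1a3 they included Apoe (0.07), which encodes the main lipid carrier of astrocytes, and Fxyd3 (0.12). For Glul they were Pla2g16 (0.08), Dapp1 (0.09) and Lonp2 (0.10), and Glud1 stood at 0.21. The median gene was at 0.62, 0.65 and 0.66 from Slc1a2, Slc1a3 and Glul. All these values rest on the same 6 libraries and share their depth and makeup.

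Beyond the 7 genes, 42 others of glutamate and glutamine handling were listed by role, and 37 passed the filter. edgeR called 0 of the 37, the lowest adjusted p being 0.490, against 0.00738% higher and 0% lower of all genes. An unadjusted p below 0.05 was reached by 4 with higher and 2 with lower values in Cx43KO, against the 5.63% and 2.64% of all genes. DESeq2 with its prior called 1, against 0.827% higher and 0.124% lower of all genes. The median log2 fold change of the 37 was 0.31. Every Cx43KO library was above every Cx43FL library for 4 of them and below for 2, against 8.08% and 7.45% of all genes tested. Without Cx43KO replicate 1, an unadjusted p below 0.05 was reached by 5 with higher and 2 with lower values, against 5% and 3.06% of all genes. In that fit 0 of the listed genes were called, against 11 higher and 0 lower over all genes.

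Of the listed beta subunits of the sodium pump, which help to place the pump at the membrane, Atp1b1 was at 215, 233 and 269 CPM in the Cx43FL libraries and at 715, 404 and 665 CPM in the Cx43KO libraries. Every Cx43KO library was above every Cx43FL library, and replicate 1 was the highest. Atp1b1 had a log2 fold change of 1.32 (SE 0.30, edgeR adjusted p = 0.490, DESeq2 with prior adjusted p = 0.0210), and 1.16 without Cx43KO replicate 1. Atp1b2, the more abundant of the pair at 1158 CPM in Cx43FL, had a log2 fold change of 0.64 (edgeR adjusted p = 0.636), with overlapping genotypes. Without Cx43KO replicate 1 the log2 fold change of Atp1b2 was 0.94 (edgeR unadjusted p = 0.00547, adjusted p = 0.421). The neuronal marker sum was higher in every Cx43KO library too, and its part in these values was not tested.

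Among the plasma membrane carriers of glutamine, Slc38a1 was at 55.7, 58.0 and 57.8 CPM in the Cx43FL libraries and at 130, 108 and 107 CPM in the Cx43KO libraries. The genotypes did not overlap, and the log2 fold change was 1.01 (SE 0.29, edgeR adjusted p = 0.490), or 0.91 without Cx43KO replicate 1. Slc38a1 encodes SNAT1, a glutamine importer best known from neurons. Slc38a3, which encodes the astrocyte glutamine carrier SNAT3 and was the most abundant of this list at 76.9 CPM in Cx43FL, had a log2 fold change of 0.44 (edgeR adjusted p = 0.687) and overlapped between genotypes. Without Cx43KO replicate 1 the log2 fold change of Slc38a3 was 0.64 (edgeR unadjusted p = 0.0387, adjusted p = 0.555).

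The lowest log2 fold change of the 37 belonged to Slc25a18, which encodes a mitochondrial glutamate carrier. Slc25a18 was at 426, 471 and 395 CPM in the Cx43FL libraries and at 124, 204 and 328 CPM in the Cx43KO libraries. All Cx43KO libraries were below all Cx43FL libraries and replicate 1 was the lowest, as for Glul and Glud1. For Slc25a18 the log2 fold change was -0.98 (SE 0.35, edgeR adjusted p = 0.540), or -0.70 without Cx43KO replicate 1.

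Gpt2, the mitochondrial alanine aminotransferase, was at 260, 308 and 279 CPM in the Cx43FL libraries and at 104, 209 and 167 CPM in the Cx43KO libraries. Its genotypes did not overlap, and the log2 fold change was -0.82 (SE 0.31, edgeR adjusted p = 0.554). Among the 18 listed enzymes, Mdh1, a malate dehydrogenase, was the most abundant at 782 CPM in Cx43FL, with a log2 fold change of -0.21 (edgeR adjusted p = 0.846). The median log2 fold change of the 18 enzymes was 0.06.

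The 4 tested genes of neuronal glutamate and GABA all had their highest value in Cx43KO replicate 1. Slc17a7, the vesicular glutamate carrier VGLUT1, was at 41.2, 67.3 and 58.7 CPM in the Cx43FL libraries and at 367, 53.1 and 58.3 CPM in the Cx43KO libraries. Only replicate 1 left the Cx43FL range, and the log2 fold change of Slc17a7, the highest of the 37, was 1.51 with it (edgeR adjusted p = 0.592) and -0.01 without it. Gad2, which makes GABA from glutamate, was at 61.9, 61.8 and 82.2 CPM in the Cx43FL libraries and at 313, 143 and 120 CPM in the Cx43KO libraries. Gad2 was above the Cx43FL range in all Cx43KO libraries, with a log2 fold change of 1.48 (edgeR adjusted p = 0.490), or 0.93 without replicate 1.

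The remaining lists held no gene with an unadjusted p below 0.05. Slc7a11, the cystine/glutamate exchanger, was at 129 CPM in Cx43FL with a log2 fold change of 0.31 (edgeR adjusted p = 0.809). Grm3, a metabotropic glutamate receptor of astrocytes, was at 131 CPM in Cx43FL with a log2 fold change of -0.23 (edgeR adjusted p = 0.827). The other carriers of the SLC1 family, Slc1a5, Slc1a6 and Slc1a7, did not pass the filter, and Slc1a6, the highest of them in Cx43FL, averaged 0.243 CPM there. Slc38a5 and Slc17a8 did not pass it either.

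**Figure D5:**
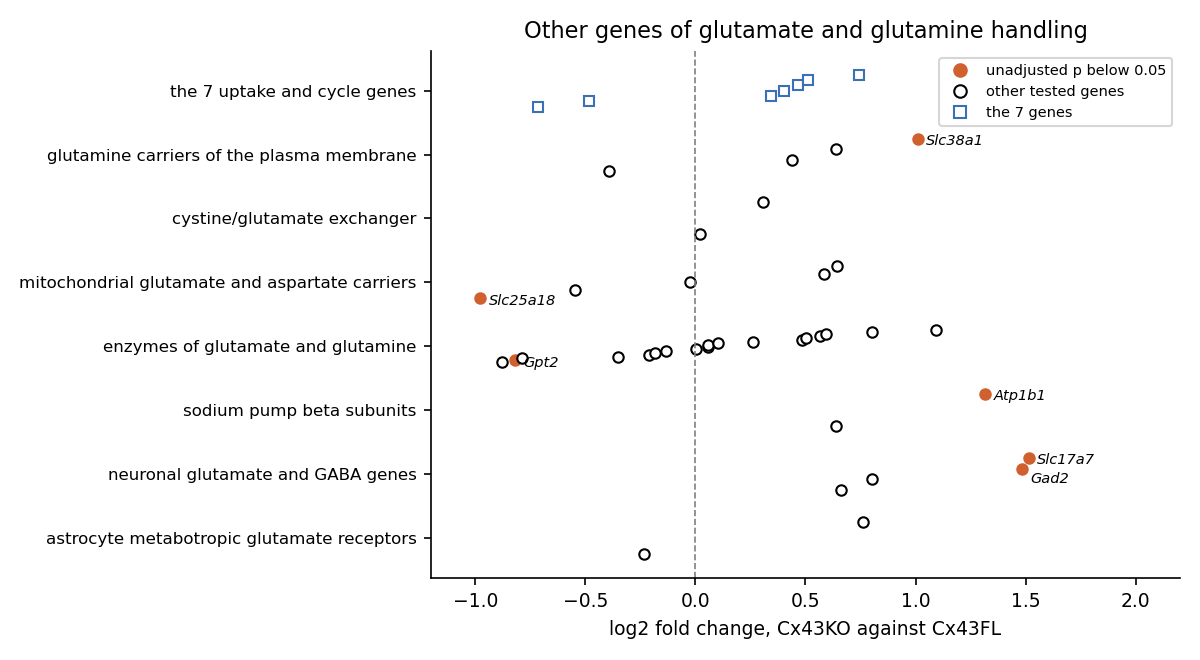
Log2 fold change in Cx43KO against Cx43FL of 37 tested genes of glutamate and glutamine handling, one circle a gene and one row a list, with the 7 uptake and cycle genes as squares on top. Filled circles are the 6 genes with an unadjusted p below 0.05, 4 of them higher and 2 lower. edgeR called none of the 37, against 0.00738% higher and 0% lower of all genes.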

How the data were processed

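Polysomal mRNAs were sequenced in 3 Cx43FL and 3 Cx43KO libraries, grouped by their labels. The authors amplified the RNA with the NuGEN Ovation system, used Eoulsan to filter the reads, mapped to mm10 with STAR, dropped reads with more than 1 match and counted with HTSeq-count, version 0.5.3 per the labels. The deposited values are raw counts on Ensembl transcripts, not normalized, with a read counted on every transcript it overlaps. Total counts on transcripts ranged from 33423491 to 77030398. Of the transcripts, 73157 were matched to the GENCODE annotation of GRCm38 and 2309, with 1.60% to 1.78% of the counts, were not. The tests had been planned for counts per gene, and the transcript with the highest total over the 6 libraries stood for its gene. For a library, 3 counts correspond to 0.0864 to 0.203 per M counts on genes, for counting error only. The libraries of a genotype were distinct from each other, since chi-square values per degree of freedom were at least 32.5 for every pair within a genotype.

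Genotypes were compared over all genes with edgeR 4.0.16 in R 4.3.3 (TMM, filterByExpr, quasi-likelihood F test, genotype alone), which left 13545 genes. A call needed an adjusted p (Benjamini-Hochberg) below 0.05 together with a mean of more than 50 normalized counts in the higher group. Standard errors were taken as log2 fold change over the square root of F, without its sign. Alternatives were DESeq2 1.42.0 with and without its prior, other size factors and filters, the replicate number as a block, summed or single transcripts and leaving out each library. Shorter transcripts and the scaling to astrocyte markers were added after the counts had been seen. The fits were also run on simulated counts with planted changes larger than those of the 7 genes. That run does not bear on changes of their size. The 7 genes, the other lists and the marker lists were chosen with earlier results of these data known. Genes named beside the 7 are Gja1, the most abundant gene of each list in Cx43FL, the highest and lowest log2 fold change, listed genes with an unadjusted p below 0.05, and the 3 genes most like Slc1a2, Slc1a3 and Glul. Cx43FL and Cx43KO libraries carry separate ranges of library numbers. A library batch and the genotype cannot be told apart. Promoter sequences are those of RefSeq. Results for some genes covered by these rules are not reported here.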

Additional observations from a re-analysis of the deposited data

How the results depend on the processing

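Of 111 alternative fits for the log2 fold changes of the 7 genes, 109 kept the direction, 0 gave an adjusted p below 0.05 and 2 reversed, Slc1a3 to -0.14 and Slc1a4 to -0.16, both without Cx43KO replicate 3. Leaving out single libraries gave 0.03 to 0.65 for Slc1a2, -0.14 to 0.68 for Slc1a3, 0.31 to 2.04 for Slc1a1, -0.16 to 0.81 for Slc1a4, -0.99 to -0.41 for Glul, -0.68 to -0.27 for Glud1 and 0.25 to 0.61 for Got1. The log2 ratio of Slc1a2 to Slc1a3 differed by -0.11 to 0.30 between genotypes, reversing to -0.11 without Cx43FL replicate 2. Over all genes, 1 was called higher and 0 lower. The counts were 113 and 17 with DESeq2 and its prior, 147 and 27 without the prior, and 763 and 358 at an unadjusted p below 0.05. With at least 10 counts in every library, or with transcripts summed, 0 were called higher. Leaving out single libraries gave 0 to 11 higher, with 11 without Cx43KO replicate 1, and 0 lower. The cause of these changes was not tested.

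With the replicate number as a block, 2 genes were called higher and 0 lower, and the log2 fold changes were 0.35 for Slc1a2, 0.19 for Slc1a3, 1.19 for Slc1a1, 0.34 for Slc1a4, -0.82 for Glul, -0.53 for Glud1 and 0.45 for Got1 (lowest edgeR adjusted p = 0.764). The numbers did not pair the libraries, since same-numbered libraries had correlations of -0.05 to 0.01 between their deviations and 1 of 3 correlated best with its own number. With 3 libraries a group, the exact permutation test could not give p below 0.1.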
